A study of Bos taurus with 48 samples.

Results

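Leptin (LEP, ENSBTAG00000014911) and fatty acid binding protein 4 (FABP4, ENSBTAG00000037526) were followed through liver, mammary parenchyma and mammary fat pad of dairy calves on 3 feeding levels. They belong to a list of 4 adipokine and adipocyte genes chosen by Ensembl identifier, of which 2 had counts that were used, out of 27607 genes counted. The other two, ADIPOQ (ENSBTAG00000019813) and PPARG (ENSBTAG00000010333), were not analysed here. The count files give identifiers without names, so the symbols are those of the list.

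Leptin is a hormone that fat cells secrete into the blood. Its circulating level follows the fat stores and the feeding state, and it acts on the brain to restrain appetite. FABP4 is a small protein that carries fatty acids inside fat cells and is among their most abundant products, although capillary endothelium and macrophages also make it. The mammary fat pad is the adipose bed into which the ducts of the gland grow, and the parenchyma is the epithelial part with its own connective tissue.

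RNA from each tissue was sequenced after removal of ribosomal RNA. Control calves were fed at a standard level set by published cattle requirements, restricted calves had their daily milk replacer cut back, and unlimited calves could drink milk replacer freely at 3 meals of 30 minutes a day. The labels give no age or breed. In liver there were 4 control, 6 restricted and 6 unlimited libraries, and in fat pad likewise 4, 6 and 6. In parenchyma 3 control, 6 restricted and 6 unlimited libraries were used, and 1 more control sample was not analysed here. Libraries are named by the number in their titles. The labels do not tie libraries to separate calves, and the spread behind each p-value is the one between libraries, which may be technical. Gene counts summed to between 5590212 and 24154641 per library. Control 1 of labelled fat pad and control 1 of liver stand apart in how their low counts fall: 43.3% and 40.8% of their gene counts from 1 to 20 were even numbers, against 56.3% to 64.6% in the other 45 libraries, and these 2 alone have reads entered as unaligned. Levels are in CPM, a library's gene counts scaled to a common sum, and are not corrected for gene length, so LEP and FABP4 levels are not set against each other except as a ratio that is followed between libraries.

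The levels of both genes went against the tissue labels. FABP4 and LEP were high in the libraries labelled parenchyma, low in the restricted and unlimited libraries labelled fat pad, and near or at 0 in liver. Fewer adipocytes and less RNA per adipocyte cannot be told apart in tissue RNA. Groups are therefore called by their labels throughout, as "labelled parenchyma" and "labelled fat pad". Names of further marker genes could not be paired with the identifiers, so the labels were checked with these 2 genes and, for the control libraries, with the place of each library between the labelled tissues over all other genes.

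LEP, the hormone, was at 19.2 to 225 CPM in the 15 labelled parenchyma libraries, with a median of 78.6 CPM and at least 282 counts in each. In the 12 restricted and unlimited libraries labelled fat pad it ranged from 0 to 30.6 CPM, with a median of 1.17 CPM. Of these libraries, 3 held 0 LEP counts, and 11 of the 12 lay below every labelled parenchyma library. All 16 liver libraries held 0 LEP counts. A limit of 3 counts of the total was 0.172 to 0.537 CPM per library, and upper ends of 95% exact binomial intervals were 0.212 to 0.66 CPM. Both cover counting error only and take counts as independent, which was not tested. Mean LEP in labelled parenchyma was 43.2-fold the highest 3-count limit in controls, 127-fold in restricted and 311-fold in unlimited calves.

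FABP4, the fatty acid carrier, was at 2476 to 6182 CPM in the 15 labelled parenchyma libraries, with a median of 3518 CPM. Its range in the 12 restricted and unlimited libraries labelled fat pad was 5.98 to 663 CPM, with a median of 65.4 CPM, and did not overlap the former. In the 16 liver libraries FABP4 was at 0.15 to 1.59 CPM, from 2 to 22 counts, below all other libraries.

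**Figure D1:**
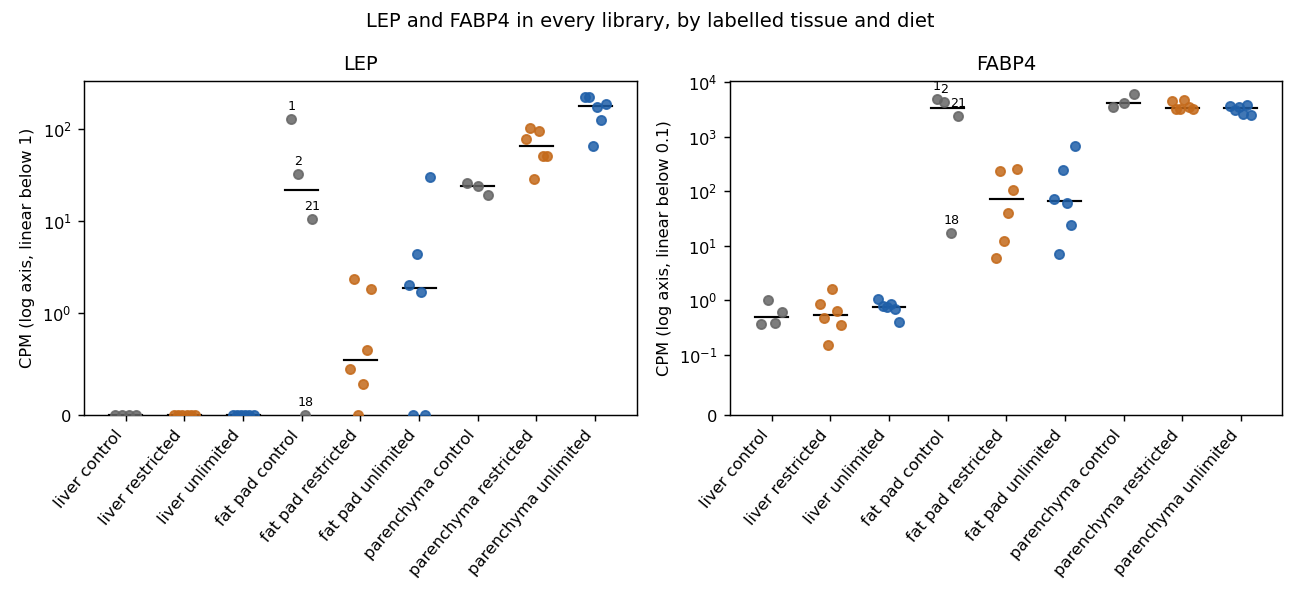
LEP (left) and FABP4 (right) in CPM on a log axis that turns linear near 0, 1 point per library, by labelled tissue and diet, with the group median as a bar and the title numbers beside the labelled fat pad controls. Labelled parenchyma is high for both genes (FABP4 2476 to 6182 CPM), restricted and unlimited labelled fat pad is low (FABP4 5.98 to 663 CPM), and labelled fat pad control 18 lies apart from controls 1, 2 and 21.

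In edgeR's fit of restricted and unlimited libraries, both genes were called lower in labelled fat pad than in labelled parenchyma, against 31.8% of 16077 genes called lower and 66.2% called in either direction. The log2 difference was -5.76 ± 0.65 (SE) for LEP (edgeR adjusted p = 5.12e-08) and -4.92 ± 0.67 for FABP4 (edgeR adjusted p = 9.9e-07). These are 54.3-fold and 30.4-fold differences, and among all genes tested LEP had the 11th and FABP4 the 48th most negative value, where the median gene was at 0.0196. Only 4.93% of genes lay lower in labelled fat pad with no overlap between libraries, and FABP4 was among them. LEP was not, because labelled fat pad unlimited 11, at 30.6 CPM, exceeded labelled parenchyma restricted 8, at 29.1 CPM. Without library 11 of labelled fat pad the difference was -6.72 for LEP and -5.49 for FABP4.

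Against liver, labelled parenchyma was called higher for FABP4, beside 38.7% of 15629 genes called higher. FABP4 differed by 11.81 ± 0.27 on the log2 scale (edgeR adjusted p = 1.35e-22), the 7th highest value of all genes tested. It held 2 to 22 counts in the restricted and unlimited liver libraries, several of them under the filter's minimum count of 10. FABP4 thus entered this fit mainly through labelled parenchyma, and the size and rank of its difference rest on low liver counts. LEP, at 0 counts in all liver libraries, entered the fit through labelled parenchyma alone, and is only set against the 3-count limits above. For FABP4, all 12 restricted and unlimited libraries labelled parenchyma exceeded all 12 liver libraries of those diets, as they did for 23.5% of genes. Labelled fat pad was also called higher than liver for FABP4, beside 41.1% of 16228 genes. FABP4 was higher there by 6.87 ± 0.81 on the log2 scale (edgeR adjusted p = 4.17e-08), a size that rests on the same low liver counts. All 12 restricted and unlimited libraries labelled fat pad exceeded every liver library of those diets for FABP4, as they did for 38.1% of genes. LEP entered that fit through labelled fat pad alone, where 3 libraries held 0 counts as liver did, and no test of it is given.

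The 4 libraries labelled fat pad control were checked one at a time. FABP4 was at 4855 CPM in control 1 (95% exact binomial interval 4799 to 4912), 4275 CPM in control 2 (4242 to 4309) and 2436 CPM in control 21 (2416 to 2456). It was at 17.1 CPM in control 18 (15.2 to 19.1). The first 2 lay within the labelled parenchyma range of 2476 to 6182 CPM and control 21 just under it. For FABP4, control 18 lay within the range of the other labelled fat pad libraries. LEP was at 129 CPM in control 1 (120 to 139), 32.6 CPM in control 2 (29.7 to 35.7) and 10.6 CPM in control 21 (9.34 to 12). It was at 0 in control 18 (0 to 0.21), where the 3-count limit was 0.171 CPM. For LEP too, controls 1 and 2 lay within the labelled parenchyma range, control 21 below it and control 18 at the bottom of the labelled fat pad range. Over genes other than these 2, each library was placed on a line from the mean of restricted and unlimited labelled parenchyma at 0 to that of labelled fat pad at 1. Controls 1, 2 and 21 were at -0.031, 0.0275 and 0.123, against -0.0207 to 0.0746 in restricted and unlimited labelled parenchyma. Control 18 was at 0.534, apart from both those libraries and the restricted and unlimited labelled fat pad libraries at 0.809 to 1.09. Liver, a tissue that did not define the line, was at 0.421 to 0.5. Controls 1 and 2 carry PAR in their titles, the abbreviation of the series title for parenchyma, and 18 and 21 do not. The latter carry PPP, as most restricted and unlimited labelled fat pad libraries do, although control 21 lay near labelled parenchyma. The labelled parenchyma control that was not analysed carries the number 2 and PAD. Whether any labels were exchanged was not tested. The intervals cover counting error only and take counts as independent, which was not tested.

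Parenchyma control libraries 18 and 21 share their numbers with these fat pad controls. FABP4 was at 3477 CPM in labelled parenchyma control 18 and at 17.1 CPM in labelled fat pad control 18. In labelled parenchyma control 21 it was at 6182 CPM, and in labelled fat pad control 21 at 2436 CPM. LEP was at 25.9 and 19.2 CPM in labelled parenchyma controls 18 and 21, above the 0 and 10.6 CPM of labelled fat pad controls 18 and 21. The libraries labelled parenchyma were thus higher for both genes at both numbers.

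As a group, labelled fat pad controls exceeded restricted labelled fat pad for both genes, beside 12.9% of 15712 genes called higher. The log2 difference was 5.81 ± 1.45 for LEP (edgeR adjusted p = 0.0146) and 4.99 ± 1.34 for FABP4 (edgeR adjusted p = 0.0208), with 2896 ± 2179 against 108 ± 111 CPM of FABP4 (SD, n = 4 and 6). The groups overlapped because of control 18. Without control 1, LEP did not pass (log2 difference 4.18, edgeR adjusted p = 0.057), and without both PAR-titled libraries neither gene did (2.72 for LEP, edgeR adjusted p = 0.247, and 3.7 for FABP4, edgeR adjusted p = 0.122). The part of the distinct low counts of control 1 in its levels was not tested.

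Against unlimited labelled fat pad, where 13.7% of 15441 genes were called higher in the controls, FABP4 was called higher by 4.26 ± 1.39 (edgeR adjusted p = 0.0445). That call was lost without the PAR-titled libraries (2.97, edgeR adjusted p = 0.224), without control 1, 2 or 21 or unlimited library 3, 6, 7, 9 or 15, each alone (edgeR adjusted p up to 0.0895), and under 3 other settings given at the close. Without unlimited library 11 the FABP4 difference was 5.39 (edgeR adjusted p = 0.0243). LEP differed by 2.99 ± 1.65 and did not pass (edgeR adjusted p = 0.196). Its difference was 1.36 without control 1 (edgeR adjusted p = 0.592) and 4.95 without unlimited library 11 (edgeR adjusted p = 0.0596). Against labelled parenchyma controls neither gene passed. FABP4 was at -0.58 ± 1.24 and LEP at 1.02 ± 1.55 on the log2 scale (edgeR adjusted p = 1 for both), in a comparison where edgeR called 0% of 14966 genes (195 had an unadjusted p below 0.05) and DESeq2 called 0. The standard errors are wide, so that these values do not show equal levels.

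Both genes varied widely inside the labelled fat pad. FABP4 differed 42.6-fold between the lowest and highest of 6 restricted libraries (5.98 CPM, median 71.6 CPM, 255 CPM) and 95.8-fold between those of 6 unlimited libraries (6.92 CPM, median 65.4 CPM, 663 CPM). In labelled parenchyma it differed 1.51-fold and 1.53-fold between the lowest and highest libraries of the same diets. The SD of log2 CPM for FABP4 was 2.23 in restricted and 2.33 in unlimited labelled fat pad, against 0.28 and 0.22 for the median gene. Of genes whose mean log2 CPM reached 1, 0.0806% and 0.0745% had a larger SD. In labelled parenchyma the SD of FABP4 was 0.27 and 0.26, with a larger one in 54.9% and 48.4% of genes.

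LEP and FABP4 moved together between labelled fat pad libraries. Over the 12 restricted and unlimited libraries, Pearson's r of log2 CPM was 0.859 (permutation p = 0.00027, adjusted p = 0.00054 over 2 tissues) and Spearman's rho 0.852 (permutation p = 0.00102, adjusted p = 0.00204). Without restricted 4 and unlimited 11, the libraries farthest from the median FABP4, r was 0.901. Within diets r was 0.791 in restricted (exact permutation p = 0.0722, n = 6) and 0.957 in unlimited libraries (exact permutation p = 0.00556, n = 6). Library 11 of the unlimited diet was highest for both genes, at 30.6 CPM of LEP and 663 CPM of FABP4. In restricted 8 and unlimited 6 and 15, where LEP had 0 counts, FABP4 was at 12.3, 6.92 and 23.9 CPM. On the line between the labelled tissues, unlimited 11 was at 0.809, restricted 5 at 0.915 and unlimited 7 at 0.944, nearest to labelled parenchyma. Their FABP4 was at 663, 234 and 244 CPM. Restricted 4 and unlimited 6, lowest in FABP4, were at 1.07. Out of that order, restricted 10 was at 1.09 with 40.3 CPM and restricted 16 at 0.97 with 255 CPM. Whether the 2 genes move together beyond a library's place on that line was not tested, nor was r set beside that of other genes.

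No such relation was found in labelled parenchyma. Over its 12 restricted and unlimited libraries r was -0.263 (permutation p = 0.408, adjusted p = 0.408) and rho -0.252 (permutation p = 0.43, adjusted p = 0.43). It was -0.306 without restricted 4 and 10. The value was 0.525 in restricted (exact permutation p = 0.278, n = 6) and -0.38 in unlimited libraries (exact permutation p = 0.464, n = 6). Whether the 2 tissues differ in this relation was not tested.

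**Figure D2:**
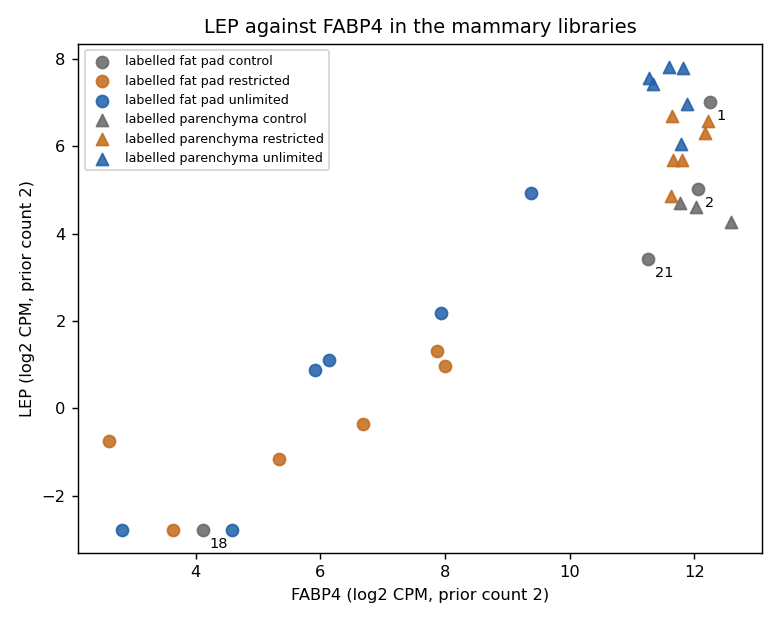
LEP against FABP4, both as log2 CPM with a prior count of 2, 1 point per mammary library, coloured by diet and shaped by labelled tissue, with title numbers beside the labelled fat pad controls. Restricted and unlimited labelled fat pad libraries rise together (r = 0.859), while labelled parenchyma libraries hold a narrow range of FABP4 and spread in LEP by diet.

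Within labelled parenchyma, LEP was higher in unlimited than in restricted calves. It was at 66.4, 126, 173, 188, 222 and 225 CPM in unlimited libraries 7, 15, 9, 11, 3 and 6. In restricted libraries 8, 13, 16, 4, 10 and 5 it was at 29.1, 51.3, 51.5, 78.6, 95.5 and 104 CPM. Of the 6 unlimited libraries, 5 exceeded every restricted library, and unlimited 7 overlapped them. The mean was 167 ± 61.1 against 68.3 ± 29 CPM (SD, n = 6 each), and the log2 fold change 1.44 ± 0.35 (SE, edgeR adjusted p = 0.0194), a 2.71-fold rise. In this comparison 7.88% of 14117 genes were called higher. LEP had the 123rd highest fold change of them.

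The call on LEP held without each library in turn (edgeR adjusted p 0.00812 to 0.0491). Of reads that fell on a gene, on none or on several, the share assigned to a gene was 39.2% ± 4.88 in unlimited and 34% ± 7.75 in restricted labelled parenchyma (SD, n = 6 each), and with it as a covariate the rise was 1.36 (edgeR adjusted p = 0.0453). The place of each library on the line between the labelled tissues was -0.0207 to 0.0082 in unlimited and -0.0153 to 0.0746 in restricted libraries. With that place as a covariate, an alternative chosen after seeing the data, the rise was 1.41 and did not pass (edgeR adjusted p = 0.283). In that fit 3 of all genes were called, against 1780 in the main fit, so the lost call is not particular to LEP.

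Controls, fed at the standard level, had the lowest LEP of labelled parenchyma. Libraries 18, 19 and 21 were at 25.9, 24.4 and 19.2 CPM, below all restricted and all unlimited libraries. Unlimited calves exceeded them by 3.06 ± 0.39 on the log2 scale (edgeR adjusted p = 0.00183), an 8.37-fold rise, beside 7.42% of 15119 genes called higher and 5.05% higher with no overlap. With the libraries titled PAR added to the parenchyma controls, the rise was 2 (edgeR adjusted p = 0.0397). Restricted calves were higher than controls by 1.63 ± 0.36 (3.09-fold) and did not pass (edgeR adjusted p = 0.0848). In that comparison 0.228% of 14881 genes were called higher, and 2.92% were higher with no overlap, LEP among them. DESeq2 called this rise (adjusted p = 0.000251), as did edgeR with the assigned share as a covariate (adjusted p = 0.0356) and without restricted library 8 (adjusted p = 0.00952). These 3 settings called 638, 121 and 316 of all genes, against 49 in the main fit. With the libraries titled PAR added, 198 genes were called and the rise of LEP was 0.55 (edgeR adjusted p = 0.67). The 3 comparisons share groups and are not independent of each other.

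FABP4 did not follow LEP across these diets. In labelled parenchyma it was at 3477, 4186 and 6182 CPM in control libraries 18, 19 and 21. The lowest, median and highest restricted libraries were at 3170, 3396 and 4787 CPM, and the unlimited ones at 2476, 3304 and 3794 CPM. The groups overlapped. The log2 fold change was -0.10 ± 0.17 for unlimited against restricted (edgeR adjusted p = 0.725), -0.22 ± 0.24 for restricted against control (edgeR adjusted p = 0.716) and -0.33 ± 0.21 for unlimited against control (edgeR adjusted p = 0.321).

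The ratio of LEP to FABP4 counts in a library does not depend on how libraries are scaled. For each 1000 FABP4 counts, labelled parenchyma controls 18, 19 and 21 had 7.44, 5.84 and 3.11 LEP counts. Restricted libraries had 9.17 to 32.4, with a median of 16.5, and unlimited libraries 18.9 to 75.9, with a median of 64.2. The ratio was higher in unlimited than in restricted libraries by 1.54 on the log2 scale, or 2.91-fold (two-sided exact permutation p = 0.00866, adjusted p = 0.0317 over 4 comparisons of the ratio). Compared with controls, chosen after the data were seen, it was higher by 1.72 in restricted and 3.26 in unlimited libraries (exact permutation p = 0.0238, adjusted p = 0.0317 for each), and in both comparisons every library exceeded every control. With any of the 3 controls left out neither passed (adjusted exact permutation p = 0.0952), since 2 controls are too few for this test to pass. The PAR-titled libraries, labelled fat pad controls 1 and 2, had 26.6 and 7.62 LEP counts per 1000 FABP4 counts. The former lay within the ranges of both other diets and the latter below them. The ratio was not tested with these libraries added to the controls.

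**Figure D3:**
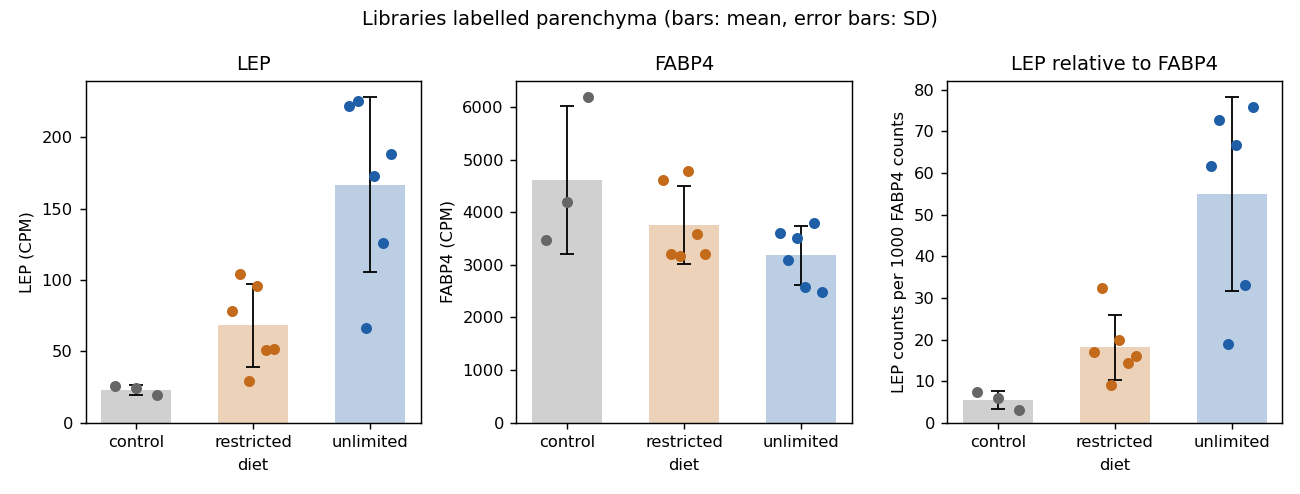
LEP in CPM, FABP4 in CPM and LEP counts per 1000 FABP4 counts in the libraries labelled parenchyma, by diet, with bars for the mean, error bars for the SD and 1 point per library (n = 3, 6 and 6). LEP stands at 23.2 ± 3.49, 68.3 ± 29 and 167 ± 61.1 CPM in control, restricted and unlimited libraries, while the FABP4 ranges of the 3 diets overlap.

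In labelled fat pad no diet difference passed for either gene. LEP was at 0 CPM in unlimited libraries 6 and 15 and at 1.71, 2, 4.42 and 30.6 CPM in libraries 9, 3, 7 and 11. In restricted libraries 8, 10, 4, 13, 16 and 5 it was at 0, 0.3, 0.448, 0.633, 1.82 and 2.36 CPM. The diets overlapped, and only unlimited 7 and 11 exceeded every restricted library. The log2 fold change was 2.82 ± 1.28 for LEP (edgeR adjusted p = 0.576), the highest of 15203 genes tested, and 0.73 ± 1.09 for FABP4 (edgeR adjusted p = 0.881). Without unlimited library 11 these were 0.85 and -0.41. In this comparison edgeR called 0% of genes (1316 had an unadjusted p below 0.05) and DESeq2 called 2 genes, neither of them LEP or FABP4.

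The LEP to FABP4 ratio in labelled fat pad was 0 to 46.1 per 1000 in unlimited and 0 to 75 per 1000 in restricted libraries. The highest restricted value came from library 4, with 6 LEP and 80 FABP4 counts. The log2 ratio differed by 0.51 between diets (two-sided exact permutation p = 0.632, adjusted p = 0.632).

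Whether the response to the unlimited diet differed between the labelled tissues was tested as an interaction, in which 0.778% of 16077 genes were called. The log2 change in labelled parenchyma minus that in labelled fat pad was -1.40 ± 1.205 for LEP (edgeR adjusted p = 0.647) and -0.83 ± 1.15 for FABP4 (edgeR adjusted p = 0.808), and neither passed. Without labelled fat pad unlimited 11 the signs turned, to 0.52 and 0.31. The rise of LEP in labelled parenchyma is thus not shown to be particular to it.

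**Figure D4:**
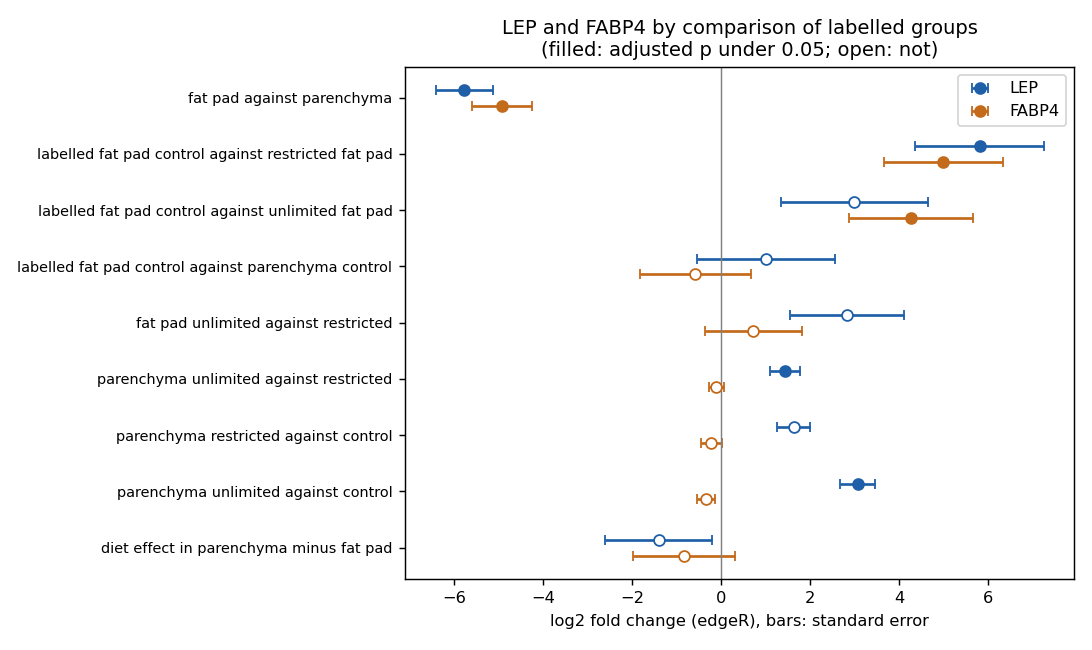
Log2 fold changes of LEP and FABP4 with standard errors from edgeR, by comparison of the labelled groups of mammary tissue, filled where the adjusted p was under 0.05. LEP is filled in both comparisons of unlimited labelled parenchyma (1.44 and 3.06), where FABP4 lies near 0 and open.

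In liver, LEP could not be compared between diets, with 0 counts in all libraries. FABP4 was at 0.586 ± 0.296 CPM in control (SD, n = 4), 0.673 ± 0.511 in restricted (n = 6) and 0.75 ± 0.214 CPM in unlimited liver (n = 6), and the ranges overlapped. It had enough counts to be tested only for unlimited against restricted liver, where the log2 fold change was -0.04 ± 0.50 (edgeR adjusted p = 0.984) and 0.0143% of 14030 genes were called. The sign of that value turned without TMM scaling, to 0.16. Restricted and unlimited against control liver, with 0.85% of 14238 and 0.482% of 14114 genes called, tested neither gene.

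Ordered by mean, LEP was highest in unlimited labelled parenchyma (167 CPM), then in restricted labelled parenchyma (68.3 CPM), labelled fat pad controls (43.1 CPM), labelled parenchyma controls (23.2 CPM), unlimited labelled fat pad (6.45 CPM), restricted labelled fat pad (0.926 CPM) and liver. Single libraries carried 2 of these means: without control 1 labelled fat pad controls were at 14.4 CPM, below labelled parenchyma controls, and without library 11 unlimited labelled fat pad was at 1.63 CPM. Among neighbours in this order, the first 2 groups differed by the test, and the other neighbouring mammary groups overlapped and were either not tested against each other or did not pass. FABP4 was highest in labelled parenchyma controls (4615 CPM), followed by restricted (3761 CPM) and unlimited labelled parenchyma (3178 CPM) and labelled fat pad controls (2896 CPM), whose ranges overlapped. Unlimited (178 CPM) and restricted labelled fat pad (108 CPM) came next and overlapped, and without unlimited library 11 (81.2 CPM for the other 5) their order turned. Liver was lowest without overlap.

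The 2 genes most alike in pattern to both members were ENSBTAG00000020105 and ENSBTAG00000031188, for which the files give no names. Over all 47 libraries and 12881 genes, Pearson's r of log2 CPM was 0.971 with LEP and 0.986 with FABP4 for the former, and 0.977 with LEP and 0.973 with FABP4 for the latter. LEP and FABP4 themselves had an r of 0.944. All of these libraries share the differences between tissues. ENSBTAG00000020105 was at a log2 CPM of 7.92 to 8.51 in control, 8.14 to 8.83 in restricted and 8.50 to 8.94 in unlimited labelled parenchyma. It was at -0.94 to 4.24 in restricted and 0.15 to 6.54 in unlimited labelled fat pad, and at -0.73 to 9.54 in the labelled fat pad controls.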

How the data were processed

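RNA from 3 calf tissues was sequenced in read pairs after ribosomal RNA was depleted, per the labels' protocols. The authors deposited raw read counts for 27607 genes per library, with 5 summary entries. Per the submitters' processing notes, FastQC, STAR 2.7.8, HTSeq 1.99.2 and DESeq2 were used, with the bovine build ARS-UCD1.2. Strand and multi-read settings: not given in the sources used here. Even numbers exceeded odd ones among low counts in 45 of 47 libraries. Intervals and 3-count limits cover counting error only and take counts as independent, so that in these libraries they may be too narrow. This was not tested.

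Groups follow the tissue and diet labels. CPM used the sum of gene rows. Tests used edgeR 4.0.16 in R 4.3.3 (TMM, filterByExpr with minimum count 10 and total 15, robust quasi-likelihood F test) on all genes of the groups compared, with calls at an adjusted p (Benjamini-Hochberg) below 0.05. Standard errors come from the F statistic. Log2 CPM used a prior count of 2, and ratios a pseudocount of 0.5. Correlations used 100000 permutations. Alternatives were DESeq2 1.42.0, other scalings, no filter, covariates and leaving out libraries. The count tests were tested on simulated data. The members, lists and tests were chosen with earlier results of these data known. Pathway and marker lists could not be used, because a RefSeq gene table of another assembly holds no Ensembl identifiers, and for the same reason the genes named as most alike are 2 identifiers, those with the highest mean r over LEP and FABP4. The rule had 4 members and 6 pairs of them, of which 2 members and 1 pair could be used.

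Whether equal numbers mark a calf is not stated. Of 12 same-numbered pairs of libraries, deviations from group means correlated over 0.1 in 7 between labelled fat pad and parenchyma, in 3 between labelled fat pad and liver and in 9 between labelled parenchyma and liver. Not all pairs did so in any of these. No chance level was set for the cut at 0.1, so these counts do not decide whether equal numbers mark a calf. Numbers were not used as pairs in the main tests. Each restricted or unlimited number carries the same diet in all 3 tissues.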

Additional observations from a re-analysis of the deposited data

Results flagged for a closer look

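Among 18 groups of levels and LEP to FABP4 ratios examined, 2 had a highest library separated by a wide gap from the others. For normally distributed values chance gives such a gap in about 1 group in 20, which need not hold for CPM. Both flags came from labelled fat pad unlimited 11. Its LEP was at 30.6 CPM, against 0 to 4.42 CPM in the other 5 libraries, and its FABP4 at 663 CPM, against 6.92 to 244 CPM. As log2 CPM, LEP was at 4.94, against -2.77 to 2.19, and FABP4 at 9.37, against 2.82 to 7.93. The gap rule was not applied to log2 CPM. On the line between the labelled tissues, this library was at 0.809. The other restricted and unlimited labelled fat pad libraries were at 0.915 to 1.09, farther from labelled parenchyma. The cause was not tested.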

How the results depend on the processing

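The number of the 2 genes called was the same under every alternative run for the contrasts between tissues, where LEP against liver entered through 1 side alone, and for unlimited against control in labelled parenchyma. For labelled fat pad controls against restricted labelled fat pad it was 0 without the PAR-titled libraries, where 2956 of all genes were called against 4010 in the main fit. With single libraries left out it was 1 to 2 (1 without control 1, with 3448 of all genes called). Against unlimited labelled fat pad it was 0 with total counts in place of TMM, with no filter and with the assigned share as covariate. It was also 0 without the PAR-titled libraries. These settings called 3414 to 3937 of all genes, against 4244 in the main fit. With single libraries left out the number was 0 to 1, and 3046 to 6973 of all genes were called. For restricted against control labelled parenchyma it was 1 with DESeq2 and with the assigned share, where 638 and 121 of all genes were called against 49 in the main fit. With single libraries left out it was 0 to 1 (1 without restricted 8, with 316 of all genes called). For unlimited against restricted labelled parenchyma it was 0 with the place between the tissues as covariate, where 3 of all genes were called against 1780 in the main fit. The cause was not tested.

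Signs turned in values that were not called. LEP of labelled fat pad controls was at -0.09 against unlimited labelled fat pad without the PAR-titled libraries. Against labelled parenchyma controls it was at -2.10 without them and -0.64 to 1.42 with single libraries left out. Leaving out single libraries gave FABP4 log2 fold changes of -0.41 to 1.16 for diets in labelled fat pad, -0.25 to 0.07 in liver (0.16 without TMM) and -0.42 to 0.03 for restricted against control labelled parenchyma. The interaction ranged from -1.96 to 0.52 for LEP and from -1.27 to 0.31 for FABP4. The log2 ratio against controls ranged from 1.36 to 1.99 in restricted and from 2.90 to 3.54 in unlimited labelled parenchyma. Total counts in place of TMM moved the median of all genes by up to 0.75 (labelled fat pad against liver), and by -0.14 for unlimited against restricted labelled parenchyma, where LEP was then at 1.28.

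With the title number as a block, the log2 difference of labelled fat pad from parenchyma was -6.39 for LEP and -6.09 for FABP4, and both stayed called. FABP4 also stayed called in the contrasts of labelled fat pad and labelled parenchyma against liver. LEP entered those through the mammary side alone, and no test of it is given. Between the control sets, numbers 18 and 21 alone enter the block, and LEP was at -4.13 (edgeR adjusted p = 1). Of 12 labelled fat pad libraries, 7 correlated best with the parenchyma library of their own number, a hint from the data and not the design. With liver it was 5 of 12 labelled fat pad and 7 of 12 labelled parenchyma libraries. The interaction was not run with the block. Where LEP held 0 to 8 counts, depth limits any statement on its diet response.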
